A study of Mus musculus with 12 samples.

Results

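The genes of the mitochondrial respiratory chain were followed in chromatin accessibility data (ATAC-seq, in which a transposase cuts open DNA) from mouse bone marrow derived macrophages. Members were all peaks whose nearest gene carries a symbol beginning with Nduf, Uqcr, Cox4 to Cox8 or Atp5, or is one of the Sdh subunit genes Sdha, Sdhb, Sdhc and Sdhd. This rule gave 312 of 139999 peaks, under 90 gene symbols. They comprise 35 complex I genes, 8 Ndufaf genes for complex I assembly, 4 complex II genes, 7 complex III genes, 16 complex IV genes, 17 complex V genes and 3 gene copies (Ndufb4c, Ndufb11b and Ndufs5-ps), whose assignment is uncertain because near-identical copies can share reads. The rule uses symbols and no measured value, though it was set with earlier results of these data known.

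The cells came from the marrow of male C57BL/6J mice, with an age given as 8 weeks. The mice were either made diabetic with streptozotocin (42 to 45 mg/kg on each of 5 days, kept at over 16.9 mmol/L glucose at inclusion and hyperglycaemic for 6 weeks) or left as healthy controls. With 6 weeks of hyperglycaemia, 8 weeks may not be the age when the marrow was taken. First-phase libraries are labelled diabetic and healthy. Rest-phase libraries are labelled diabetic-trained and untrained, and the marrow was grown in both with M-CSF over 7 days at 5 mmol/L glucose. Second-phase libraries carry the same 2 labels and were stimulated after that culture for 16 hours with LPS at 100 ng/mL together with IFN-γ at 10 ng/mL. When the first-phase cells were taken is not given in the labels. Each of the 6 groups has 2 libraries, and the labels do not say whether these come from separate animals, so a p-value reflects library-to-library spread alone, and that spread may be technical. The deposited tables give 2 unnamed group means per phase. They are called A and B here in the order of the columns, the letters carry no meaning from phase to phase, and no value below can be assigned to diabetic or control cells. Libraries are numbered 1 and 2 within a group by the worth of a read, not by the labels.

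The respiratory chain passes electrons from NADH (complex I) and succinate (complex II) through ubiquinone to complex III, cytochrome c and complex IV, and ATP synthase (complex V) uses the resulting proton gradient to make ATP. Most subunits are encoded in the nucleus and expressed in nearly all cells, while a few subunits of complex IV exist as tissue isoforms. In macrophages, the balance between oxidative phosphorylation and glycolysis is known to change with activation, with electron flow at complexes I and II attracting particular attention.

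The member peaks lay near gene starts more often than peaks in general. Of the member peaks, 28.5% were annotated within 1 kb of a start, against 16.7% of all peaks, while 18.3% against 36.7% were intronic and 34.0% against 30.2% distal intergenic. The member genes had a median of 2 peaks, against 4 for all genes. Single peaks stood under 24 genes, and the most, 17, under Uqcrfs1, the Rieske iron-sulfur subunit of complex III. A peak covered the annotated start in 71 of the 90 genes, and these 71 peaks are called start peaks below, each 400 bp wide. Another 183 member peaks lay more than 3 kb from the start of the gene they were listed under.

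Distance alone assigned the symbols, so 12 of the 19 genes without a start peak had a peak within 250 bp of their RefSeq (GRCm38.p6) 5' end that the tables list under a neighbour. Cox4i1, the ubiquitous isoform of complex IV subunit 4, had its start in a peak listed under Gm27021. Atp5f1a, the alpha subunit of ATP synthase, had it in a peak listed under Haus1, and Ndufa4 had a peak listed under Phf14 beside its start. The others were Ndufb3 (Hycc2), Ndufaf5 (Esf1), Ndufa4l2 (Stac3), Uqcr10 (Zmat5), Ndufaf8 (Tepsin), Ndufb9 (Tatdn1), Ndufv3 (Wdr4), Ndufa7 (Rps28) and Ndufaf7 (Cebpz). Conversely, 16 of the 71 start peaks also covered the start of a gene that is no member, such as Eef1b2 with Ndufs1, Timm8b with Sdhd, Ccdc127 with Sdha and Gabpa with Atp5pf. Gabpa encodes the DNA-binding subunit of nuclear respiratory factor 2. Signal in these 16 peaks cannot be divided between both genes. The tissue isoforms Cox7b2 and Cox8b, and Atp5mc1, had no peak under their symbols.

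Promoter sequences were at hand from RefSeq (GRCm38.p6) for 71 of the 90 genes and for 61 of those with a start peak. The 6 below are shown because they belong to the 3 genes with the largest start-peak folds between the first and the rest phase among those with a sequence (Cox6b2, Ndufa1 and Ndufc1), and to a defining subunit of complexes II, III and V. Each gives the 250 bases before the start, read towards the gene, with matches to the searched motifs in capitals.
Cox6b2 (chr7:4753095-4753344, minus strand, complex IV isoform): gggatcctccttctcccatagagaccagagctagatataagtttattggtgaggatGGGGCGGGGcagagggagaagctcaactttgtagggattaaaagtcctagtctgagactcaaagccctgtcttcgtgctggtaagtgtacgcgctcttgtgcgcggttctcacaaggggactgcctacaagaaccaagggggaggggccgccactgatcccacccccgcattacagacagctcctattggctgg
Ndufa1 (chrX:37191239-37191488, minus strand, complex I): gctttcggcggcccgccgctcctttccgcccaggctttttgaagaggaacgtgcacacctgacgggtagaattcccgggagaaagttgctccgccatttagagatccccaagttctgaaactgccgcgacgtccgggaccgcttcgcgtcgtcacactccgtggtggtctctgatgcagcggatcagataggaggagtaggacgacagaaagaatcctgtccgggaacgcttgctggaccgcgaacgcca
Ndufc1 (chr3:51408956-51409205, minus strand, complex I): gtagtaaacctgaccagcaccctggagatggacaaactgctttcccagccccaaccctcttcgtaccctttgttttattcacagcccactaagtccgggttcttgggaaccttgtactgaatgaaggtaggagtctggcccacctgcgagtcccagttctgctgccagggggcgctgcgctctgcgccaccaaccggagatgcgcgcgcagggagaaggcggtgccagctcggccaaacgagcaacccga
Sdha (chr13:74350241-74350490, minus strand, complex II): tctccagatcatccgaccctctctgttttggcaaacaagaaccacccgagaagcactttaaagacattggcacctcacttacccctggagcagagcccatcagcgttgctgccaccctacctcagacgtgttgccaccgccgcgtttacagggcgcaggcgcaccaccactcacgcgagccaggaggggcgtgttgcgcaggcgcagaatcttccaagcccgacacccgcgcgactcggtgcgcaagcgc
Uqcrc1 (chr9:108936398-108936647, plus strand, complex III): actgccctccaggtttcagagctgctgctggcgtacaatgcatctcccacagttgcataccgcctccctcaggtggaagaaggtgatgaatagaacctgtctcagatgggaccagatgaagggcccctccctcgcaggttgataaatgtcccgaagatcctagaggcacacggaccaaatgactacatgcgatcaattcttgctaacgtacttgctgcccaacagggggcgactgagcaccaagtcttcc
Atp5f1b (chr10:128083057-128083306, plus strand, complex V): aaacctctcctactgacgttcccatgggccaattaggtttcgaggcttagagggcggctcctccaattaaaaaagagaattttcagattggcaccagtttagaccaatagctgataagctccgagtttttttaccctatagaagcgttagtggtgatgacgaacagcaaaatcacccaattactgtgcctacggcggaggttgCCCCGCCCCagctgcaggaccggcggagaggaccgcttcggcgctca

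The 6 motifs, searched on both strands over 300 bases (the 250 shown and 50 after the start), were those of NRF1 (CGCATGCG), ETS factors such as GABPA (CCGGAAGT), YY1 (AAGATGGC), CREB (TGACGTCA), ERR (CAAGGTCA) and SP1 (GGGGCGGGG), and none contains another. In the sequences above the capitals are SP1 matches in Cox6b2 and Atp5f1b, and the other 4 hold no match in the 250 bases shown, while Uqcrc1 (NRF1) and Ndufc1 (YY1) have one after the start, which is counted below. Of the 61 member windows of 300 bases, 50.8% held at least 1 motif, against 20.8% of the 32851 promoters of the table and 35.6% of the 13026 that overlap a peak. YY1 letters were present in 16.4% of member promoters, against 2.75% of all and 4.31% of those overlapping a peak. NRF1 letters were present in 13.1%, against 1.87% and 3.78%. ERR letters stood in 4.92% (3 genes), against 1.56% and 0.883%, and CREB letters in 4.92%, against 1.79% and 3.23%. The ETS motif was in 6.56% of member promoters and 7.85% of those overlapping a peak, and SP1 in 16.4% and 21.1%, with the lower share in the members both times. Median GC content was 58.3% in the members, 60.7% in promoters overlapping a peak and 52.7% in all. A match is a description of letters, not a bound site.

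Reads in peaks ranged from 3832347 (second-phase B1) to 18617444 (rest-phase A1). The spread between the 2 first-phase A libraries was near that of read sampling (ratio of variances 1.13), against a ratio of 2.07 to 15.7 in the other pairs, and these 2 were counted as 1 sample between phases. Levels below are log2 (reads + 1), quantile-scaled over all 12 libraries, whereas each fold was fitted after scaling over only the libraries it compares, so it can differ somewhat from the difference between printed levels. The summed level of macrophage marker starts (8 genes, among them Adgre1 and Csf1r) was 10.5 to 11.0 in the first phase, 11.4 to 11.6 in rest A, 11.1 to 11.2 in rest B and 11.3 to 11.4 in the second phase. Sums for neutrophil, B cell and erythroid markers were higher in the first phase than in any later library, and that for T and NK cells was not. The summed neutrophil level (8 genes) was 10.5 to 11.4 in the first phase, 7.69 to 7.73 in rest A, 8.44 to 8.65 in rest B and 7.85 to 9.28 in the second. The B cell sum (6 genes) was 8.55 to 10.1, 6.34 to 6.51, 6.56 to 7.31 and 6.29 to 6.68 in the same order, and the erythroid sum (6 genes) 8.72 to 9.88, 5.49 to 5.87, 6.01 to 6.38 and 5.46 to 5.83. The T and NK cell sum (5 genes, 1 with a peak over its start) was 7.76 to 8.06, 7.24 to 7.29, 7.95 to 8.11 and 6.87 to 7.80. Only 1 erythroid gene had a library without reads, and no other marker was at 0 in any library.

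The second-phase libraries stood apart within both groups. The peaks nearest the start of 12 interferon response genes, a list added after the data were seen, had a median level of 5.88 in second A1 and 5.60 in B1, but 7.79 in A2 and 7.95 in B2, against 5.59 to 5.95 in the rest phase. At the member start peaks the same libraries parted. Second A1 differed from the mean of rest A by 0.19 on average (mean absolute log2 difference over 71 peaks) and from rest B by 0.68, and B1 by 0.38 and 0.85. Second A2 differed by 0.42 from rest A and by 0.26 from rest B, and B2 by 0.48 and 0.28. At these interferon genes A1 and B1 were at the level of the rest phase although they are labelled as stimulated. Second-phase counts, medians and folds below include them, and each library's own level is given for Ndufs1, Atp5mg and Sdha.

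Respiratory chain starts were among the more accessible peaks in these cells. The mean level over the 12 libraries had a median of 7.97 over the 71 start peaks (5.23 to 9.74), against 7.42 over the start peaks of 11540 genes and 4.68 over all peaks. Among all peaks 61 of the 71 had a level in the top 10%. Their spread was also smaller than that of gene starts at large, with a median SD over the libraries of 0.44 against 0.51.

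**Figure D1:**
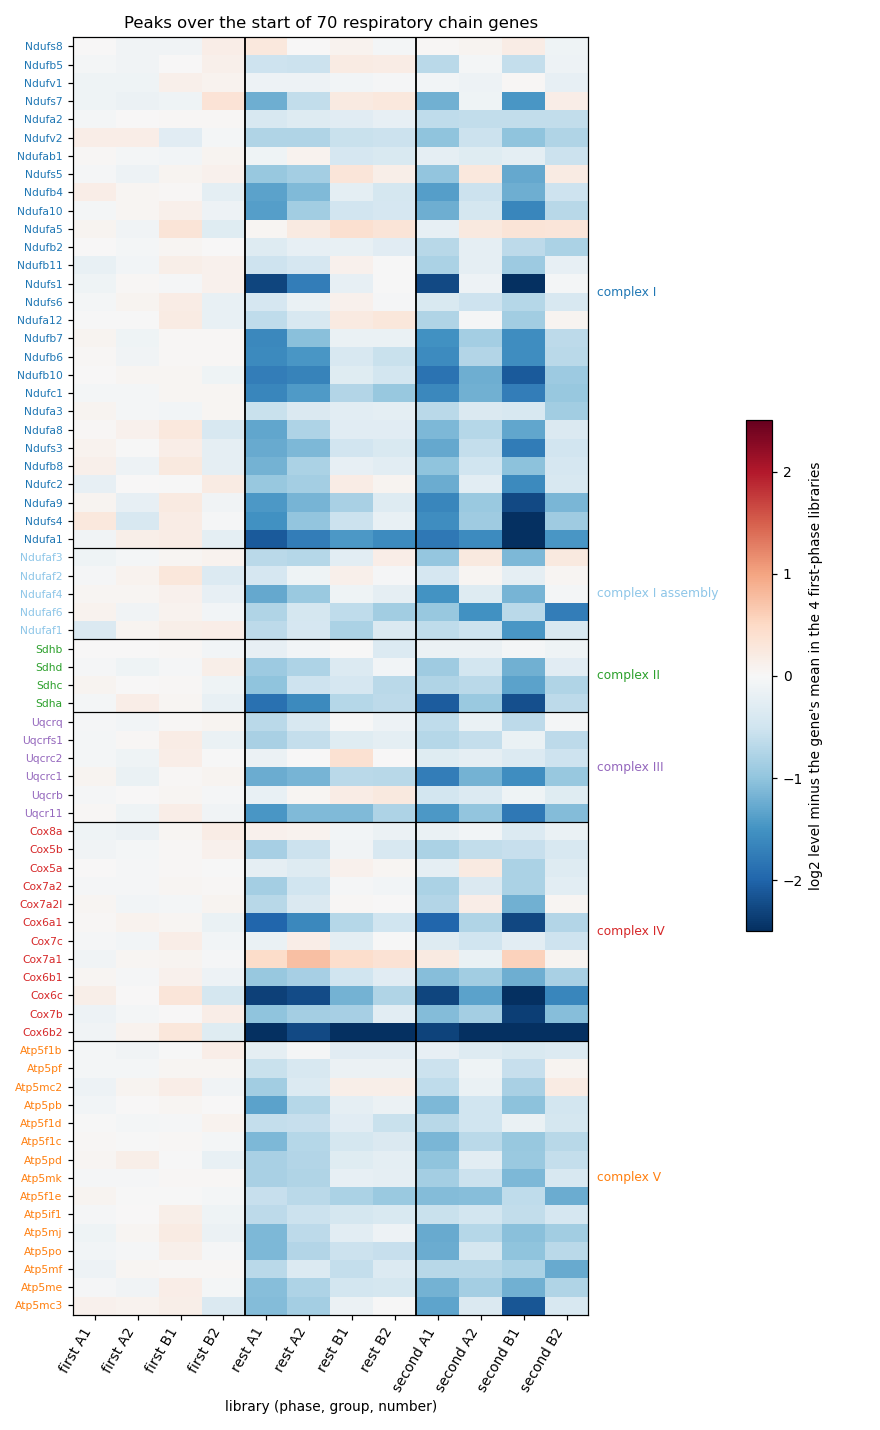
Rows are 70 of the 71 start peaks, grouped by complex and ordered by mean level, and columns the 12 libraries; colour is the log2 level minus the gene's mean in the 4 first-phase libraries, with values beyond 2.5 in either direction drawn in the end colours. Rest A, second A1 and second B1 are bluer in most rows than rest B, second A2 and second B2 on this quantile scale, Cox6b2 is low in all 8 later libraries, and Ndufs8, Ndufv1 and Cox8a hardly vary.

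The 2 highest start peaks by mean level were those of Ndufs8 and Atp5f1b. Ndufs8 (an iron-sulfur subunit of complex I) had levels of 9.70, 9.61, 9.60 and 9.86 among first-phase libraries (A1, A2, B1, B2), of 9.95, 9.71, 9.79 and 9.65 at rest, and of 9.72, 9.77, 9.87 and 9.59 in the second phase. Atp5f1b, the catalytic beta subunit of ATP synthase, had 9.51, 9.47, 9.54 and 9.73, then 9.35, 9.53, 9.28 and 9.28, and 9.37, 9.23, 9.18 and 9.23. Ndufv1, which carries the FMN and NADH-binding site, lay between 8.97 and 9.31 in all 12 libraries. For Ndufs8 and Ndufv1 the 3 phases overlap, and for Atp5f1b the first phase overlaps the rest phase but lies wholly above the second. The lowest mean level of the 71 was that of Cox6b2, a testis isoform of complex IV subunit 6b, at 5.23.

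Between the first and the rest phase, the starts of respiratory chain genes lost accessibility relative to the bulk of peaks, as gene starts at large did. Of the 71 start peaks, 33 were lower in the rest phase, 1 was higher and 37 did not pass (limma, adjusted p under 0.05, n = 3 first-phase and 4 rest-phase samples). Their median log2 fold was -0.56, against -0.43 over the starts of all genes and 0.02 over all peaks. The share of members that fell, 46.5%, compares with 39.2% of all 11537 tested gene starts, and the share that rose, 1.41%, with 9.18%. Over all distances 40 member peaks rose and 63 fell of 311 (12.9% and 20.3%), against 19.8% of all peaks called higher and 18.7% called lower. The number of calls changed with the scaling and with 1 library. With the authors' scaling no start peak was called and their median was -0.28 beside an all-peak median of 0.76. That scaling was set separately in each phase, so it is not a common scale between phases. Without first-phase library B1 15 start peaks were called lower. Against the rest-phase libraries of group A alone 53 fell, and against group B alone 23. The start-peak median was -0.79 against group A alone, beside -0.55 over all gene starts. Against group B alone it was -0.32, beside -0.33, so the members fell no further than gene starts there. In bulk samples, fewer cells of a type and less signal per cell cannot be told apart. The neutrophil, B cell and erythroid markers given above fell over the same comparison (all 8, all 6 and 5 of 6 peaks nearest the start called lower), while 1 of 5 such peaks of T and NK cell markers rose and 1 fell, and their part in the result was not tested.

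**Figure D2:**
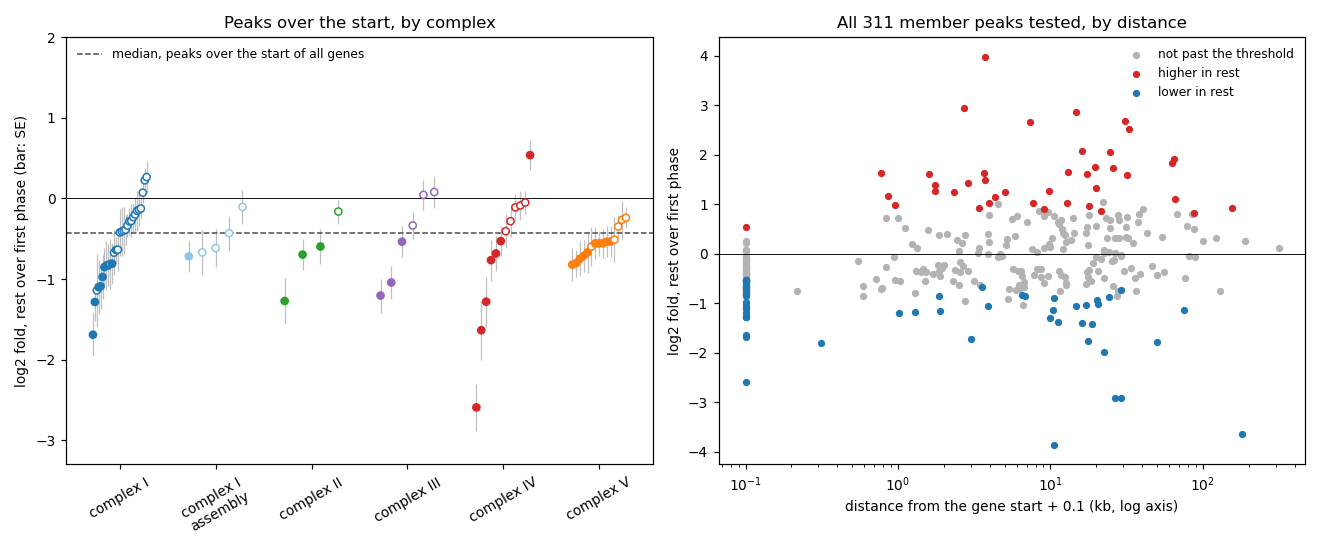
Left, log2 fold of the rest over the first phase with its SE for each of the 71 start peaks, by complex, filled where the adjusted p is under 0.05 (limma, quantile scaling); the dashed line is the median over gene starts at -0.43. Right, the fold of all 311 tested member peaks against distance from the gene start on a log axis. At the start 33 points are called lower and 1 higher, while beyond 3 kb 30 are called higher and 24 lower. With the authors' scaling, which was set separately in each phase, no start peak passes.

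In complex I, 10 of 29 start peaks fell and none rose, where the background is 39.2% and 9.18% of all gene starts. The same background applies to the counts for the other complexes below. Ndufa1, a small accessory subunit, fell from 6.94, 7.18, 7.22 and 6.79 to 4.93, 5.31, 5.59 and 5.46, so that all first-phase libraries lay above all rest-phase ones (log2 fold -1.69, SE 0.27, limma adjusted p = 0.000187). Ndufc1, another accessory subunit, fell from 8.35, 8.35, 8.44 and 8.44 to 6.77, 6.98, 7.67 and 7.45 (-1.28, SE 0.23). The other 8 folds called lay between -1.10 (Ndufb10) and -0.64 (Ndufv2, a core subunit with an iron-sulfur cluster). The core subunit Ndufv1 (-0.12, SE 0.13) did not pass. Ndufs1, the largest core subunit, had -1.14 (SE 0.45, limma adjusted p = 0.0588), with its 2 rest-phase groups far apart, as described below. Of the 5 Ndufaf start peaks, only Ndufaf6 passed (-0.72, SE 0.20).

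Complex II, which is also succinate dehydrogenase of the citric acid cycle, had 3 of 4 start peaks lower. Sdha, the flavoprotein that oxidises succinate, fell from 8.49, 8.71, 8.59 and 8.35 to 6.68, 6.95, 7.82 and 7.89, without overlap (-1.27, SE 0.29, limma adjusted p = 0.0028). Its membrane anchors fell too, Sdhc by 0.70 (SE 0.20) and Sdhd by 0.60 (SE 0.22) on the log2 scale. Sdhb, the iron-sulfur subunit, kept levels between 8.63 and 9.01 in all 12 libraries and did not pass (-0.16, SE 0.15).

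In complex III, 3 of 6 start peaks fell: Uqcr11 (-1.20, SE 0.21), the core subunit Uqcrc1 (-1.04, SE 0.20) and Uqcrfs1 (-0.54, SE 0.20). Uqcrc1 went from 8.54, 8.31, 8.50 and 8.53 to 7.22, 7.31, 7.80 and 7.78, with no overlap. Its partner core subunit Uqcrc2 stayed at 7.96 to 8.22 and 7.91 to 8.44 (0.04, SE 0.19).

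Complex IV held both the lowest and the highest of the 71 folds, with 6 of 12 start peaks lower and 1 higher. Cox6b2 fell from 7.19, 7.36, 7.56 and 6.98 to 4.76, 5.02, 4.20 and 4.67 (-2.59, SE 0.29, limma adjusted p = 1.15e-05), that is from 48, 59, 150 and 63 reads to 55, 60, 14 and 22 reads. Its ubiquitous counterpart Cox6b1 fell by 0.68 (SE 0.21) to levels of 7.04 to 7.71. Cox6c went from 7.71, 7.56, 7.85 and 7.11 to 5.22, 5.32, 6.37 and 6.80 (-1.64, SE 0.37) and Cox6a1, the non-muscle isoform of subunit 6a, from 8.78 to 9.03 down to 6.97, 7.33, 8.24 and 8.44 (-1.28, SE 0.31). Cox5b fell by 0.53 (SE 0.19), while Cox5a had -0.11 (SE 0.17), Cox8a -0.05 (SE 0.15), Cox7a2 -0.41 (SE 0.21) and Cox7a2l, a supercomplex factor, -0.28 (SE 0.20), none of which passed. Cox7a1, known as the heart and muscle isoform, was the start peak that rose, from 7.33, 7.48, 7.49 and 7.40 to 7.88, 8.17, 7.87 and 7.80 (0.54, SE 0.19, limma adjusted p = 0.0349), with no overlap. The call was lost with the authors' scaling (1.26), against rest-phase group B alone (0.55), and without first-phase B1 (0.54), first-phase B2 (0.51) or rest-phase A2 (0.49). The summed level of the 4 peaks nearest the start of striated muscle markers was 7.80 to 8.20, then 7.36 to 7.95 over the same phases. Of these, Des, the only one over its start, had a fold of 0.81 and did not pass. Ckm (-0.39) and Myod1 (-0.53) did not pass either, and Tnnt3 fell (-0.79). Another Des peak, at -17087 bp, rose (1.03). Their part in the Cox7a1 rise was not tested. Cox8c, a testis isoform with no start peak, rose at its nearest peak, at -3606 bp (1.49, SE 0.43). The nearest peaks of Cox4i2, the lung isoform of subunit 4 (at 1423 bp), and Cox6a2, the muscle isoform of subunit 6a (at -1799 bp), had -0.36 (SE 0.35) and -0.45 (SE 0.29) and did not pass.

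In complex V 10 of 15 start peaks were lower, and all 15 folds lay between -0.82 (Atp5po, a stalk subunit) and -0.24 (Atp5f1b). Atp5f1e, the epsilon subunit, fell by 0.80 (SE 0.17). Of the genes for the membrane ring, Atp5mc2 (-0.26, SE 0.23) and Atp5mc3 (-0.51, SE 0.28) did not pass.

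Of the 12 peaks at or beside a start and listed under neighbours 8 fell, none rose, and the median fold was -0.88. Over all gene starts 39.2% fell and 9.18% rose. Cox4i1 fell from 9.32, 9.36, 9.14 and 8.97 to 7.66, 7.75, 8.53 and 8.59 (-1.10, SE 0.24, limma adjusted p = 0.00254). Ndufb3 had the largest fold of the 12 (-1.29, SE 0.32). Ndufa4, now counted with complex IV, fell from 8.61 to 8.87 in the first phase to 7.64, 7.88, 8.21 and 8.31 (-0.81, SE 0.20), and its paralogue Ndufa4l2 by 0.94 (SE 0.27) on the log2 scale. Atp5f1a did not pass (-0.30, SE 0.22). Because the tables credit these peaks to Gm27021, Hycc2 and Haus1, a search by symbol alone misses them, and for Ndufb3 it returns a peak 17337 bp away with the opposite fold (1.60, SE 0.30).

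Away from the starts there was no common direction. Beyond 3 kb, 30 of 182 member peaks rose (16.5%) and 24 fell (13.2%), against 21.3% and 15.8% of all peaks at that distance, with a median fold of 0.11 in both. The largest rise was at an intronic peak of Ndufa9 (a complex I subunit), chr6:126845117-126845516 (mm10), 3609 bp from the start. It rose from 2.20, 2.81, 1.62 and 2.64 to 6.71, 6.57, 6.03 and 5.70 (3.98, SE 0.38, limma adjusted p = 3.56e-06), while the start of the same gene fell (-0.97, SE 0.27). Sdhb had a similar contrast: the peak 2592 bp inside the gene (chr4:140963995-140964394) rose from 5.06, 3.59, 4.82 and 4.99 to 8.05, 7.68, 7.54 and 7.33 (2.95, SE 0.27), while its start did not pass. The next largest rises were at peaks listed under Cox6a2 (2.85, at -14585 bp), Atp5po (2.68, at -30808 bp), Ndufb4 (2.67, at -7270 bp), Ndufa12 (2.08, at 16090 bp), Cox4i1 (2.06, at 24513 bp) and Ndufs5-ps (1.91).

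Some of these peaks lie inside genes that are no members, and others between a member and another gene. The Cox4i1 peak lies 23456 bp beyond that gene and 38294 bp from Irf8, which encodes a transcription factor of the macrophage lineage. The Ndufs5-ps peak lies inside Zbtb20. The largest fall, at chr9:50592960-50593359 (mm10), was listed under Sdhd and lies between that gene (2981 bp away) and Il18 (11119 bp away), the gene of an inflammatory cytokine. Its level went from 7.70, 7.73, 7.56 and 8.50 to 4.69, 4.42, 3.53 and 3.65 (-3.87, SE 0.35, limma adjusted p = 2.72e-06), without overlap. Other large falls stood under Ndufa4 (-3.65, 179643 bp away), Uqcr10 (-2.92, inside Ascc2), Cox7a2l (-2.92), Ndufb4c (-1.98, inside Mroh5), Ndufv3 (-1.81, inside the gene) and Ndufa10 (-1.79). These 16 largest changes, Cox6b2 among them, kept their direction with each of the 3 scalings, and 4 (Cox6b2, Ndufb4c, Ndufv3 and Ndufa10) were no longer called with the authors' scaling. The Ndufv3 peak is annotated 212 bp from a start, but that is not the RefSeq 5' end of the gene. The peak at that 5' end, listed under Wdr4, did not pass (-0.39, SE 0.16).

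Within the rest phase, respiratory chain starts were less open in group A than in group B relative to the other peaks, and the sign of the raw difference depended on the scaling. With quantile scaling 31 of 71 start peaks were lower in A and none was higher (43.7% and 0%), against 18.5% and 3.52% of gene starts, and the median fold was -0.42 against -0.19. Over all distances limma called 19 member peaks higher in A and 41 lower, where the background is 6.48% of all peaks higher in A and 5.56% higher in B. In the authors' deposited table, by contrast, A had the higher value at 108 of 312 called member peaks (34.6%) and B at 0, where the background is 39.7% of all peaks for A and 0.0929% for B. That table has an all-peak median fold of 1.04, a gene-start median of 0.90 and a start-peak median of 0.71. In it 7 of the 71 start peaks (9.86%) were called higher in A, against 25.6% of gene starts. Below the all-peak median lay 59 of the 71 start peaks with quantile scaling, 60 with total reads, 58 with the authors' scaling and 61 in the authors' table. The difference between the medians of start peaks and of all peaks was -0.40, -0.38, -0.34 and -0.33 in these 4 settings. All 4 rest on the same reads, and a scaling by 1 factor per library moves all folds nearly together. Their agreement is therefore no independent support. The median over gene starts was also below that over all peaks in each setting. With any 1 of the 4 libraries left out limma called no peak at all, the lone library being assumed to vary like the others, and the median over start peaks was -0.31 to -0.54.

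**Figure D3:**
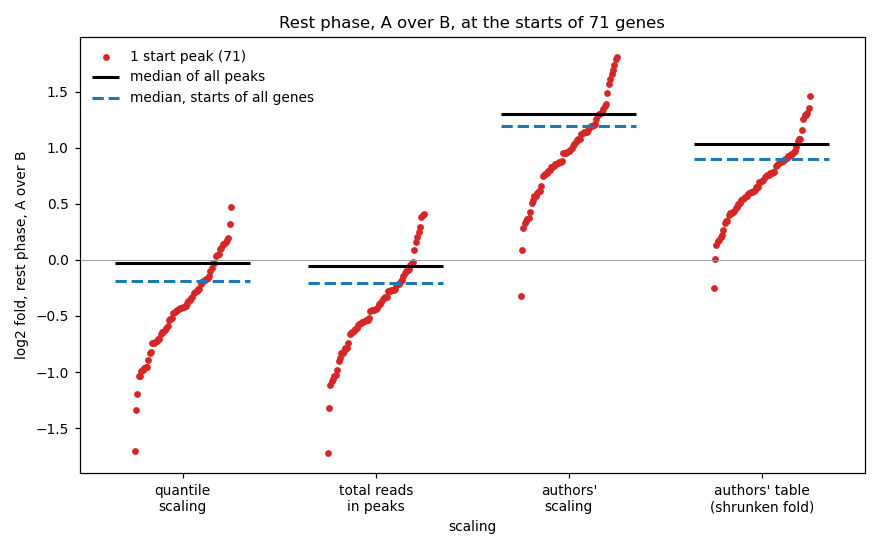
Each point is the log2 fold of A over B in the rest phase at 1 of the 71 start peaks, ordered by value within each of 4 settings; black lines are the medians of all peaks and dashed blue lines those of gene starts. Most points lie below the black line in every setting, whereas their sign relative to 0 turns positive with the authors' scaling and in the authors' table.

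The largest start difference was at Ndufs1. This subunit, which carries several iron-sulfur clusters of complex I, had 6.37 and 6.94 in rest A and 8.46 and 8.66 in rest B (-1.70, SE 0.19, limma adjusted p = 0.00194). These correspond to 191 and 238 reads in the A libraries and to 201 and 402 in the shallower B libraries. First-phase libraries held 8.56 to 8.77, a range that rest B overlapped and rest A did not. The sign of this fold was negative with all 3 scalings and in the authors' table (-0.25, adjusted p = 0.74 there). Atp5mg, the g subunit of ATP synthase with its nearest peak at -117 bp, had 6.26 and 6.58 against 7.94 and 8.30 (-1.57, SE 0.18). Next came Cox6c (5.22 and 5.32 against 6.37 and 6.80; -1.34, SE 0.24) and Ndufb10 (6.73 and 6.79 against 8.16 and 8.00; -1.19, SE 0.14), both of which had folds above 0 with the authors' scaling.

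By complex, with quantile scaling, the start peaks lower in A numbered 16 of 29 in complex I (median -0.65), 2 of 5 for the assembly factors and 2 of 4 in complex II. They numbered 1 of 6 in complex III, 4 of 12 in complex IV and 6 of 15 in complex V (median -0.42). Over all gene starts the share lower in A was 18.5%. Sdha had 6.68 and 6.95 against 7.82 and 7.89 (-0.96, SE 0.15) and Sdhd -0.53 (SE 0.13), while Sdhb (0.04, SE 0.12) and Sdhc (-0.19, SE 0.17) did not pass. In complex IV, Cox6a1 (-1.04, SE 0.15), Cox7a2 (-0.52, SE 0.13) and Cox7a2l (-0.45, SE 0.12) passed. Atp5mc2 (-0.63, SE 0.14) and Atp5mc3 (-0.82, SE 0.16), which encode the same ring protein, also passed, and Atp5f1b (0.14, SE 0.09) and Ndufv1 (-0.07, SE 0.08) did not. Of the 12 starts listed under neighbours 5 were lower in A, against the same 18.5%, Cox4i1 among them (-0.71, SE 0.11). The sign depended on the scaling: the 9 start folds named as lower in A other than that of Ndufs1 were above 0 with the authors' scaling and in the authors' table, with values in the closing section. Both B libraries lay above both A libraries in 55 of the 71 start peaks (77.5%, against 49.7% of gene starts and 30.9% of all peaks) and below them in 6 (8.45%, against 18.6% and 28.3%).

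Other cell markers had folds over the same comparison with quantile scaling, taken at the peak nearest the start. Peaks of neutrophil markers had a median fold of -0.75 (2 of 8 lower in A), and those of B cells -0.75 (none of 6 called). Erythroid markers had -0.64 (none of 6), T and NK cell markers -0.85 (1 of 5 lower) and macrophage markers 0.24 (3 of 8 higher). Over all gene starts 18.5% were called lower in A and 3.52% higher, with a median fold of -0.19. The A libraries had 18617444 and 16002834 reads in peaks, and those of B 5459236 and 8775958. Their part in the result was not tested.

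Away from the starts the rest-phase groups differed in both directions with quantile scaling and in 1 direction in the authors' table. Beyond 3 kb limma with quantile scaling called 17 of 182 member peaks higher in A (9.34%) and 9 lower (4.95%), against 7.06% and 3.94% of all peaks at that distance. The authors' deposited table had 76 of 183 higher in A (41.5%, against 41.0% of all peaks there) and 0 lower. The largest differences were at Ndufaf2 (2.10, SE 0.58), Atp5po (2.00, SE 0.30, at -38009 bp), Cox4i1 (1.90, SE 0.34, at 26448 bp, on the Irf8 side) and Cox4i2 (1.77, SE 0.29, inside Bcl2l1) in favour of A. Ndufa10 (1.51), Ndufb9 (1.39, at 1654 bp), Uqcrfs1 (1.32) and Ndufab1 (0.86) followed. Lower in A with quantile scaling were an intronic peak of Sdhb (3.85 and 3.94 against 5.92 and 5.79; -2.06, SE 0.31), a peak near Cox8c (-1.84, SE 0.48), the peak under Ndufa8 (-1.34) and another between Il18 and Sdhd (-1.23), of which those under Ndufa8 and between Il18 and Sdhd were above 0 with the authors' scaling (0.14 and 0.46) and in the authors' table (0.12 and 0.39). In the authors' deposited table the largest folds in favour of A were at the same peaks of Cox4i2 (2.69), Cox4i1 (2.65), Atp5po (2.63), Ndufa10 (2.45), Uqcrfs1 (2.41), Ndufaf2 (2.23) and Ndufb9 (2.12), and at the Ndufa9 intron (2.05).

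Within the second phase, the authors' deposited table called 93 of 312 member peaks in favour of A (29.8%) and 0 in favour of B, where the background is 26.7% of all peaks for A and 0.00429% for B. At the start 12 of 71 were called (16.9%), against 41.8% of gene starts. The start-peak median in that table was 0.99 beside an all-peak median of 0.86. On recovered reads limma called no member peak with any of the 3 scalings, with 1 of 311 at an unadjusted p under 0.05 with quantile scaling and 14 with the authors' scaling. The second-phase folds of the authors' deposited table run as B minus A, and are turned to A over B here and in the median above. None of the largest folds named here was at a start peak. They were at peaks listed under Cox4i1 (1.75, at 23382 bp), Cox4i2 (1.71, at 25986 bp, inside Bcl2l1), Sdhb (1.70, 2592 bp inside the gene) and Cox8a (1.69, at -8943 bp, inside Naa40). Atp5f1a (1.63, at 3290 bp), Uqcrfs1 (1.62, at -3479 bp) and Atp5po (1.58, at 9724 bp, inside Itsn1) followed. Within groups the libraries were far apart. Ndufs1 had 6.41 in A1 and 8.54 in A2, 5.51 in B1 and 8.61 in B2. Atp5mg had 6.45, 8.07, 6.46 and 7.76, and Sdha 6.46, 7.61, 6.35 and 7.87 in the same order. In each of these genes the libraries numbered 1 were low and those numbered 2 high in both groups.

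**Figure D4:**
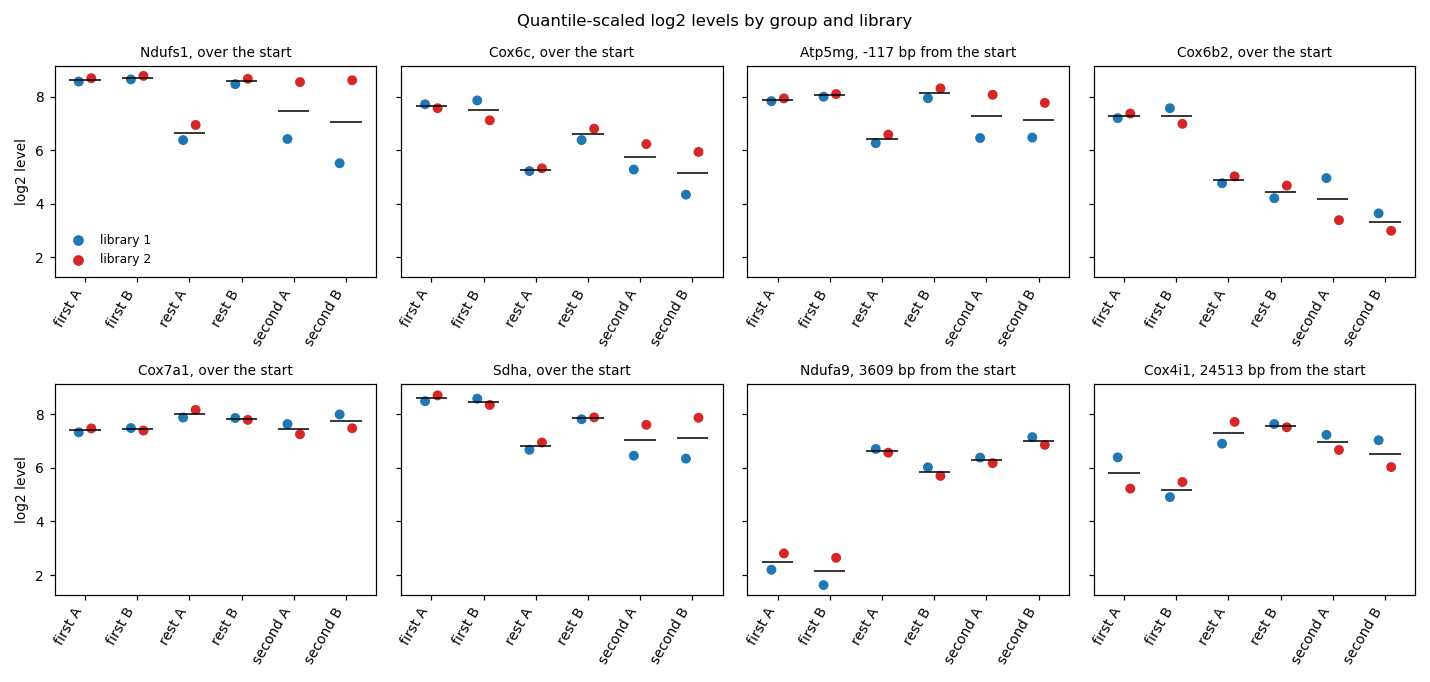
Log2 levels of 8 member peaks in each library, with blue for library 1, red for library 2 and a black line at the group mean of 2. Ndufs1 and Atp5mg are low in rest A and in library 1 of both second-phase groups, Cox6b2 is low in all later libraries, Cox7a1 stays between 7.26 and 8.17, and the Ndufa9 intronic and Cox4i1 distal peaks are higher after the first phase.

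With all 4 second-phase libraries included, A1 and B1 at rest-phase interferon levels among them, no change from the rest to the second phase was detectable at these genes. Limma called 0 of 311 member peaks, as it called 0.00% of all peaks, with 32 member peaks at an unadjusted p under 0.05 (n = 4 and 4), and 0 member peaks were called with the other 2 scalings. The median fold over the 71 start peaks was -0.20, against -0.22 over gene starts and -0.08 over all peaks. Ndufs1 levels ran from 6.37 to 8.66 at rest and from 5.51 to 8.61 in the second phase, so the phases overlapped. With 1 library left out at a time the count stayed at 0, with medians over start peaks of -0.31 to -0.09. A p that misses the threshold does not show that the phases were alike.

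For the first phase, the authors' deposited table called no member peak between the groups and 0.00% of all peaks, with 0 member peaks at an unadjusted p under 0.05. By limma 0 of 311 passed and 8 had an unadjusted p under 0.05. With quantile levels B lay above A without overlap in 21 of 71 start peaks (29.6%, against 16.2% of gene starts and 16.4% of all peaks). A lay above B in 3 (4.23%, against 20.1% and 16.0%). The A libraries, which differed by little more than read sampling (ratio of variances 1.13), were counted separately in limma and in these counts. The median fold of A over B was -0.09 with quantile scaling and 0.22 with the authors' scaling, so its direction turned, and 50 and 10 of the 71 start peaks lay below the all-peak median.

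Other genes of the pathway were taken from 3 lists, each gene by its peak nearest the start. Over all gene starts 39.2% fell and 9.18% rose from the first to the rest phase. Of 13 regulators of mitochondrial genes, 5 fell and 1 rose (median -0.48). Gabpb1, a partner subunit of GABPA (-1.38, SE 0.25), Nrf1 (-1.17, SE 0.22), the mitochondrial RNA polymerase Polrmt (-0.93, SE 0.22) and Yy1 (-0.63, SE 0.19) are the 4 largest falls, and Tfb1m rose (0.50, SE 0.12). Gabpa entered by a peak 23099 bp away (-0.48), which did not pass. Its own start lies in the start peak listed under Atp5pf (-0.35). Of 39 electron carrier and assembly genes, 11 fell and 2 rose (median -0.21), led by Uqcc2 (-1.48, SE 0.33), Sco1 (-1.26, peak 1198 bp away), AA467197 (-1.21) and Sdhaf4 (-1.11), with Uqcc1 (0.75) and Cox15 (1.10, peak 4141 bp away) higher. Of 17 pyruvate and citric acid cycle genes, 7 fell and 1 rose (median -0.33), with Mdh2 (-1.16, peak 1704 bp away), Sucla2 (-0.91) and Dld (-0.76) among those lower and Pdhb (0.46) higher. In the rest phase, with quantile scaling, 2 regulators (Gabpb1 and Yy1), 5 carrier and assembly genes (Uqcc2 at -1.17, Etfb, Uqcc3 and Surf1 the 4 largest) and 6 citric acid cycle genes (Dlat at -0.81, Dld and Cs among them) were lower in A, against 18.5% of all gene starts, and none of the 3 lists had such a peak higher in A. In the authors' deposited table, A was higher at 3 of the 13, 3 of the 39 and 2 of the 17, against 25.6% of all gene starts. It was lower at 0, against 0.026%.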

How the data were processed

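ATAC-seq libraries from 12 samples (6 groups of 2) were available as 3 peak tables, 1 per phase. Bowtie2 2.5.4 and the build mm10 are named, with HOMER 5.1, DESeq2, DiffBind 3.14.0, MACS2, Picard 3.2.0, bedtools 2.28.0 and deepTools 3.2.1 also named, per the submitters' processing notes, which give no order or settings. The log2 group means and log2 folds in the tables are the authors' values, and the p-values and adjusted p-values beside them were deposited by the authors. First-phase and second-phase folds, deposited as B minus A, were turned to A over B. Whole reads of each library were recovered from the deposited means, with a largest relative miss of 3.46e-09, and 442 peaks listed at 0 in a group were left out. Reads in peaks set the depth and precision of each library. No other sample columns were present (0 left unused).

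Groups within a phase were compared by the authors' calls (adjusted p under 0.05). Recovered reads were quantile-scaled over the libraries compared, a pseudocount of 1 was added, and log2 values were tested with limma 3.58.1 (R 4.3.3) across 139557 peaks, with Benjamini-Hochberg adjustment over all of them. Between phases A and B were pooled. The script was tested on simulated data. Python 3.11.15, numpy 2.4.6, pandas 2.3.3 and scipy 1.17.1 were used. Named peaks are the 8 largest changes in each direction among called member peaks, 1 per gene, and a set of defining subunits and isoforms. Alternatives were other scalings, thresholds, read minimums and pseudocounts, and leaving out each library. Members and gene lists were chosen with earlier results of these data known. Promoters came from RefSeq GRCm38.p6. Values of 2 genes that the naming rule covers are not reported here.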

Additional observations from a re-analysis of the deposited data

How the results depend on the processing

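Within the rest phase, 108 member peaks were higher in A in the authors' table, 39 at an adjusted p under 0.01. Limma called 60 with quantile scaling (19 higher and 41 lower in A) and 68 with at least 10 reads on average (21 and 47), but 143 higher and 0 lower with the authors' scaling, and 0 to 0 with each library left out in turn. Within the second phase, 93 in the authors' table became 0 at an adjusted p under 0.01, 0 by limma under each scaling and read minimum, and 0 to 0 with each library left out. Between the first and the rest phase, 103 member peaks were called, 48 at an adjusted p under 0.01, 39 with 1 start peak per gene, 55 with the authors' scaling (51 higher and 4 lower), 65 against rest group B alone and 62 to 107 with each library left out. The 33 starts called lower became 12 at an adjusted p under 0.01, 0 with the authors' scaling, 53 against rest group A alone and 15 to 39 with each library left out. The comparisons with 1 rest group alone were added after the data were seen. The authors' scaling was set separately in each phase, so it is not a common scale between phases. The 31 starts higher in rest B by limma became 13 at an adjusted p under 0.01, 0 with the authors' scaling, 0 in the authors' table and 0 to 0 with each library left out.

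The rest-phase fold of A over B turned positive with the authors' scaling and in the authors' table, in that order, for Cox6c (0.36, 0.14), the Ndufa8 peak (0.14, 0.12), the peak between Il18 and Sdhd (0.46, 0.39), Ndufb10 (0.29, 0.17), Atp5mc2 (0.54, 0.35), Atp5mc3 (0.76, 0.47), Cox6a1 (0.37, 0.18), Cox7a2 (0.77, 0.55), Cox7a2l (0.84, 0.57), Sdha (0.57, 0.35) and the Sdhd start (0.80, 0.51). Some second-phase folds of A over B were positive in the authors' table, once its sign (B minus A) was turned, but negative by limma with quantile scaling. They were at the peaks away from the start named for the second phase. Without A1 the fold was negative for Cox4i1 (-0.35), Sdhb (-0.022) and Cox8a (-0.46), and without B2 for Cox4i2 (-0.080) and Cox8a (-0.90). The cause was not tested. No paired analysis was possible because the deposited columns are group means and the recovered libraries carry no replicate numbers. With 2 libraries a group, depth from 3832347 to 18617444 reads in peaks limits what low peaks can show.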
